A study of Homo sapiens with 6 samples.

Results

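The Fanconi and homologous recombination repair genes were examined in LM3 cells, an established human hepatocellular carcinoma (HCC) line, after knockdown of ZNF706, a zinc finger protein. The set holds 35 genes that were given by name, and each was found once, by its symbol, among the 33007 genes of the deposited table. All 35 passed the filter on low counts, which left 18390 genes in all. RNA-seq was performed on 3 control samples, from the corresponding vector control cells, and on 3 ZNF706 knockdown samples, from cells that stably carry a short hairpin RNA against ZNF706 in the lentiviral vector pLKO.1. The genotype is labelled WT in all 6 samples, knockdown cells were selected with puromycin, and no DNA-damaging agent is named for any sample. Which hairpin was used and whether the cells were a pool or a single clone are not stated, nor do the labels say that the samples of a group came from separate cultures, so the p-values below measure the spread between these samples, which may be technical. Counts on genes summed to 62684076, 64713764 and 63054445 in controls 1 to 3 and to 68548419, 65861994 and 69057423 in knockdown samples 1 to 3.

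The Fanconi pathway removes crosslinks that tie the strands of DNA together. A core complex that holds the ubiquitin ligase FANCL attaches ubiquitin to the FANCD2-FANCI pair, nucleases then open the crosslink, and the broken strand is rebuilt by homologous recombination, in which the BRCA1, PALB2 and BRCA2 proteins act on DNA whose ends have been trimmed by nucleases such as EXO1. The kinases ATM and ATR signal the damage, and dividing cells use the same proteins to protect stalled replication forks, so that transcripts of many of these genes are highest in cells that are copying their DNA.

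The targeted gene was examined first. ZNF706 had 51.9, 55.1 and 54.7 CPM (counts scaled to the TMM library size) in the controls and 33.5, 30.8 and 32.8 CPM in the knockdown samples. The groups did not overlap, and knockdown over control gave a log2 fold change of -0.73 (standard error 0.050, edgeR adjusted p = 3.7e-05), so transcript of the gene was reduced but not lost. The cells carried little transcript of the liver markers examined. ALB reached at most 3.57 FPKM (fragments scaled to gene length and library size) in any sample, TTR at most 0.10 and HNF4A at most 0.23. Of 11 hepatocyte markers tested, SERPINA1 (-1.47, adjusted p = 0.0034) and APOB (-0.98, adjusted p = 0.021) fell, APOB in only 2 of the 6 fits with a sample removed. All 11 log2 fold changes were below 0 (median -0.85), but the groups overlapped for all but 3 of the markers. Their summed level was 17.8, 41.5 and 47.4 CPM in the controls and 22.7, 23.0 and 10.8 CPM after knockdown, so control replicate 1 lay among the knockdown samples. Of 5 epithelial markers, the keratins KRT8 and KRT18 averaged 193 ± 3.32 and 271 ± 10.8 FPKM in the control samples (SD, n = 3), whereas KRT19 was at 0.463, CDH1 at 0.293 and EPCAM at 0.127 FPKM, and none of the 5 passed the test. Among markers of other cell types, PTPRC, of all leukocytes, was at most 0.01 FPKM, whereas CD68, which is used as a macrophage marker, rose from 10.6 ± 0.202 to 17.1 ± 0.897 FPKM (SD, n = 3, adjusted p = 0.00011). Of the endothelial markers, VWF was at most 0.03 FPKM, PECAM1 did not pass (0.667 and 0.770 FPKM in the groups) and CDH5 fell from 1.25 to 0.793 FPKM (adjusted p = 0.0014). Of the 5 fibroblast markers tested, COL3A1 (-2.04), LUM (-1.26) and DCN (-0.039) did not pass, while COL1A1, at 7.05 FPKM in the controls, rose (log2 fold change 0.20, adjusted p = 0.0023) and PDGFRB rose from 0.653 to 1.08 FPKM (adjusted p = 0.0030). The part of these genes in the values of the repair genes was not tested. In bulk RNA of this kind, fewer cells that express a gene and less of its RNA per cell cannot be told apart.

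All 35 repair genes were expressed. Their median level over the 6 samples was 4.79 FPKM, against 2.23 FPKM for all genes tested. NBN, the regulatory subunit of the MRE11 nuclease complex, had the highest mean level per length (28.0 ± 1.70 FPKM, SD, n = 6), followed by EXO1 at 20.7 ± 2.50, TOPBP1 at 15.9 ± 1.51 and FANCI at 15.6 ± 0.442 FPKM. TOPBP1 and FANCI lay within their spread of each other. The lowest levels were those of FANCC at 1.74 ± 0.105, XRCC3 at 1.57 ± 0.166 and FANCF at 1.52 ± 0.263 FPKM, and the last of these did not differ from XRCC3 beyond the spread. Genes whose products work in one complex were not equally abundant. In the core complex, FANCG was at 11.0 ± 0.526 FPKM and FANCF at 1.52, and in the MRE11 complex RAD50 was at 8.34 ± 0.599 and MRE11 at 5.21 ± 0.392 FPKM beside the 28.0 of NBN. BRCA1 (7.56 ± 0.687 FPKM) was above its partner BARD1 (3.42 ± 0.288) and above BRCA2 (2.33 ± 0.352).

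**Figure D1:**
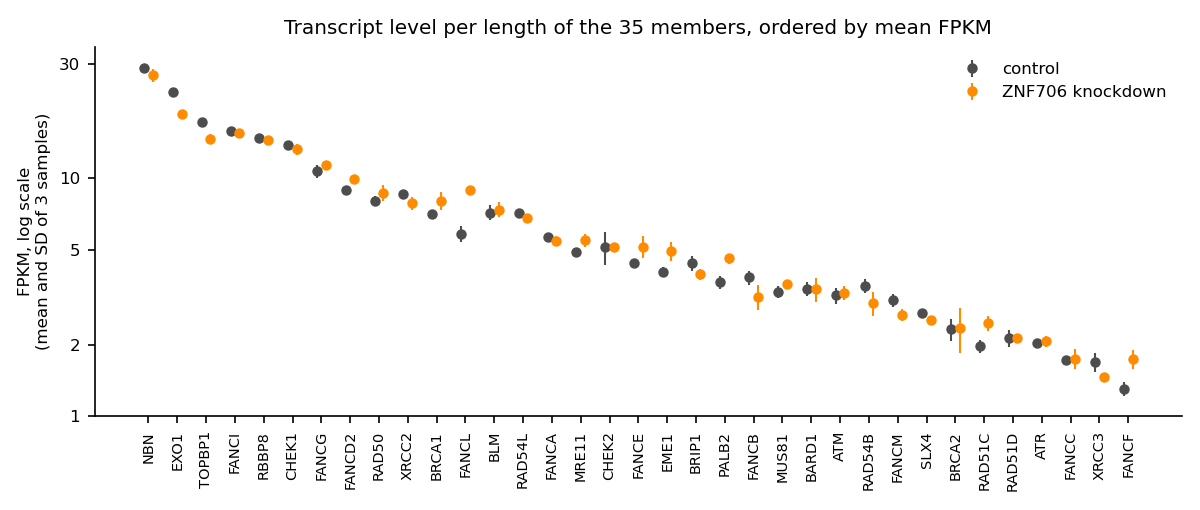
Mean FPKM of the 35 repair genes in control (grey) and ZNF706 knockdown (orange) samples on a log axis, ordered by the mean over all samples, with bars for the SD of 3 samples. The levels run from 28.0 FPKM for NBN to 1.52 FPKM for FANCF, and the groups stand apart most clearly for FANCL.

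The 35 genes lie on 17 chromosomes and have long, AT-rich transcripts. The median length of the longest transcript in GENCODE release 29 was 4728 bases, against 2933 for the genes tested, and the median GC content was 42.2% against 48.7%. Their promoters were not AT-rich, with a median GC content of 63.8% against 64.3%. Promoter windows from RefSeq (GRCh38.p14, 250 bases before to 50 bases after a transcript start) were given for 32 of the 35 genes, in 42 windows. The windows were searched on both strands for TTTCCCGC, TTTCGCGC, TTTGCCGC and TTTGGCGC, letters that the E2F factors of the G1/S transition can bind, and matches on opposite strands may share bases. Such letters stood in 3.31% of all 35116 promoters, 4.75% of those of genes tested and 38.5% of 52 windows given for DNA replication genes. The share was 16.9% for other Fanconi and recombination genes and 21.4% for G1/S and E2F genes. For mitosis genes it was 11.4% and for end joining genes 5.26%. Among the repair genes they stood in 6 of the 42 windows (14.3%), in 6 genes. These genes are EXO1, TOPBP1 and XRCC2, whose transcripts fell after knockdown (below), and FANCA, FANCC and FANCD2, which did not pass the test. The 30 bases around each match are shown because each of the 6 genes holds one of these words, though not the same one, read 5′ to 3′ on the gene's own strand with the matched letters in capitals:
EXO1, chr1:241848197-241848226, plus strand: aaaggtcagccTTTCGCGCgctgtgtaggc
TOPBP1, chr3:133661930-133661959, minus strand: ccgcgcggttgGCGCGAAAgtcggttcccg
XRCC2, chr7:152676102-152676131, minus strand: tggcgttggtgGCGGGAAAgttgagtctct
FANCD2, chr3:10026424-10026453, plus strand: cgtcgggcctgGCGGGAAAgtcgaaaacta
FANCA, chr16:89816801-89816830, minus strand: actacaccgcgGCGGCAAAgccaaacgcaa
FANCC, chr9:95317737-95317766, minus strand: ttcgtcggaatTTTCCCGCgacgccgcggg
FANCC, chr9:95317863-95317892, minus strand: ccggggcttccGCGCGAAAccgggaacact

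Counted from the first transcribed base as 0, the match begins at 4 in EXO1, at 21 in XRCC2, at -7 in TOPBP1 and at -2 in FANCD2. The match spans the start in TOPBP1 and FANCD2 and lies within the transcript in EXO1 and XRCC2. In FANCA it begins at -172, and in FANCC at -46 and -172. EXO1 and FANCC each have a further window, at another start, that holds no match. The letters CCAAT stood in 42.9% of the windows, against 34.6% of all promoters. The cell cycle homology letters (TTTGAA or TTCGAA) stood in 7.14%, against 16.4% of all promoters and 12.1% of those of genes tested. They stood in 71.4% of the 35 windows given for mitosis genes. CACGTG, an E-box that MYC can bind, stood in 7.14% of the repair windows, against 7.26% of all promoters and 9.27% of those of genes tested. CCAAT and TTTGAA can share bases where they adjoin. A match says only that the letters are present.

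After ZNF706 knockdown, 7 of the 35 repair genes changed and 28 did not pass the test. FANCL and PALB2 rose, while EXO1, TOPBP1, FANCM, BRIP1 and XRCC2 fell. The share called was 20.0% at an adjusted p of 0.05 (quasi-likelihood test of edgeR, Benjamini-Hochberg adjusted over all genes tested). Of all genes tested 22.8% were called, so in this fit the count does not set the repair genes apart. By direction, 5.71% were higher and 14.3% lower, against 10.4% and 12.4% of all genes. Among the 9618 genes whose mean CPM lay between the lowest and the highest of the repair genes, 33.6% were called. With DESeq2, 12 of the 35 were called, and 4418 of the 31319 genes with any count. That total holds genes of low count that the filter of the main fit removed. Its share is therefore not like that of the repair genes, and none was computed for genes of like CPM. With the GC trend removed the repair genes gained calls while all genes lost them (counts below). These differences were not tested. In the main fit the changes were small, from -0.36 to 0.55 on the log2 scale. The median log2 fold change was -0.048, against 0.0095 for all genes. It turned to 0.0054 when library size alone set the scale, which also moved the median of all genes to 0.063. With the GC trend or the length trend removed and with limma on FPKM, it lay between 0.00076 and 0.012. The median of all genes rose in these settings too, to between 0.023 and 0.055. In every setting the median of the repair genes was below that of all genes. The split of the calls moved with these settings too, from 2 higher and 5 lower to 8 higher and 2 lower with library size alone, 6 and 2 with the length trend removed, 7 and 5 with the GC trend removed, and 6 and 2 with limma on log2(FPKM + 0.1). That of all genes moved in the same direction, from 1906 higher and 2286 lower to 2742 and 1518 with library size alone, 2132 and 1846 with the length trend removed, 1971 and 1818 with the GC trend removed, and 2279 and 1539 with limma. FANCL, PALB2, EXO1 and TOPBP1 were called in the same direction in each of the 12 other settings that used all samples, whereas FANCM, BRIP1 and XRCC2 were called in 4 of them and lost the call with no filter, with library size alone, with the GC or length trend removed and with limma on FPKM.

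**Figure D2:**
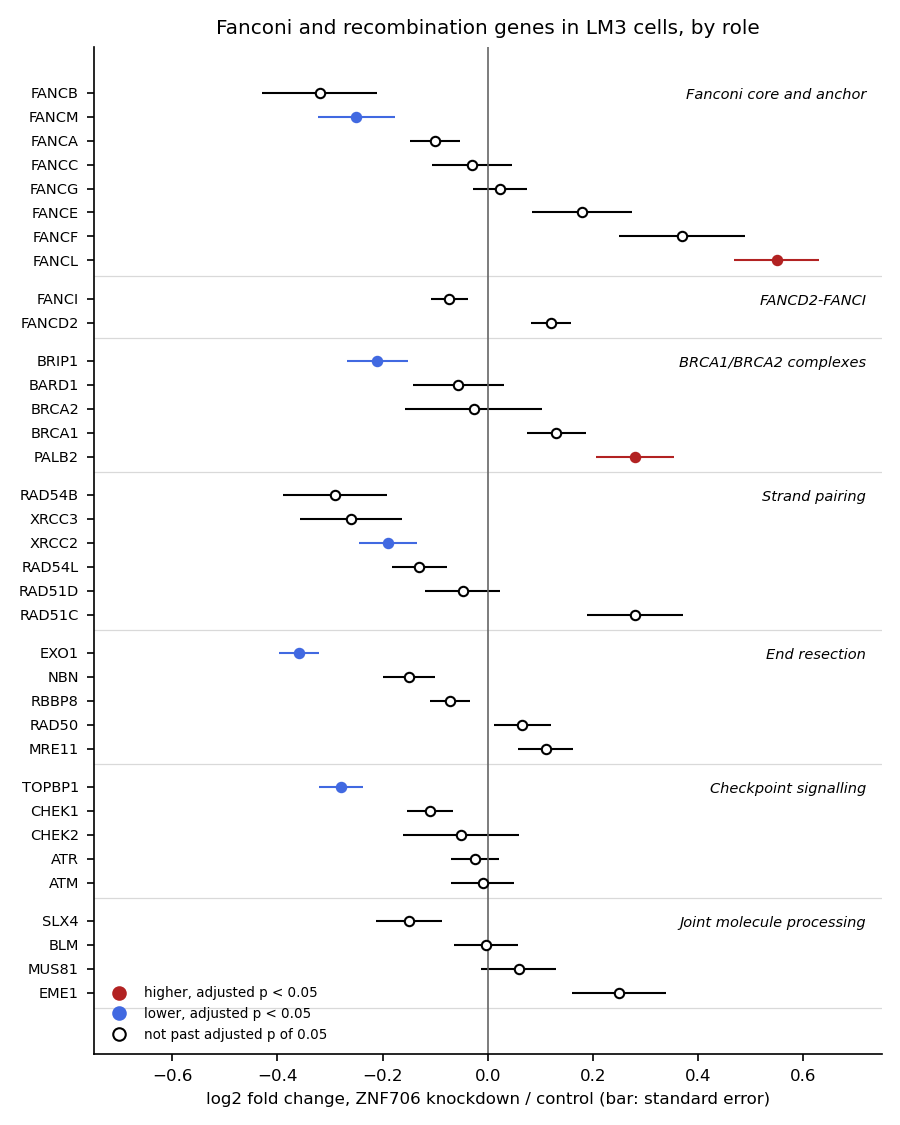
Log2 fold change of knockdown over control with its standard error for each of the 35 repair genes, in blocks by role. Filled points passed an adjusted p of 0.05, 2 in red (higher) and 5 in blue (lower), and every block except the FANCD2-FANCI pair and joint molecule processing holds at least 1 filled point.

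Of the 8 genes of the Fanconi core complex and its DNA anchor, FANCL rose and FANCM fell. FANCL (ENSG00000115392, GRCh38 chromosome 2, 58159243 to 58241325, minus strand) encodes the ubiquitin ligase of the complex. It had 16.2, 17.8 and 15.2 CPM in the controls and 23.5, 23.5 and 25.2 CPM in the knockdown samples. All knockdown samples were above all control samples, and the rise of 46.7% (log2 fold change 0.55, standard error 0.081, adjusted p = 0.0012) was the largest change in either direction among the 35 genes. The transcript of VRK2, a kinase gene on the opposite strand, shares 18.7% of the exon bases of FANCL and had 168% of its mean count. VRK2 itself stood at a log2 fold change of 0.062 (adjusted p = 0.58). Whether strand was used in counting is not given in the sources used here, so reads in the shared bases cannot be assigned.

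FANCM (chromosome 14, 45135930 to 45200890, plus strand), the DNA translocase that anchors the core complex to DNA, had 31.6, 28.2 and 31.2 CPM in the controls and 27.0, 23.9 and 25.5 CPM in the knockdown samples. The highest knockdown sample was just below the lowest control sample, and FANCM fell by 16.1% (log2 fold change -0.25, standard error 0.073, adjusted p = 0.033). The other core genes did not pass the test. FANCB, which pairs with FANCL in the complex, stood at a log2 fold change of -0.32 (adjusted p = 0.055) and FANCF, an adaptor of the complex, at 0.37 (adjusted p = 0.057), each without overlap between the groups. FANCE, which contacts FANCD2, had 0.18, FANCG 0.023, FANCC -0.030 and FANCA -0.10. The core complex held both the largest positive and one of the largest negative values of the set. By the criteria of the study (unadjusted p below 0.05, log2 fold change of 0.3 or more in size), FANCL and FANCF were higher and FANCB and EXO1 lower, which makes 4 of the 35 genes. Of all genes tested, 15.5% met these criteria, 9.61% as higher and 5.88% as lower.

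Neither gene of the substrate pair passed the test in the main analysis. FANCD2 had 84.0, 87.1 and 87.9 CPM in the controls and 95.8, 94.7 and 90.3 CPM in the knockdown samples. The groups did not overlap, but the change of 0.12 on the log2 scale (standard error 0.038) did not pass, with an adjusted p of 0.053. FANCD2 was called higher in 9 of the 12 other settings that used all samples, and in 1 of the 6 fits with a sample left out. FANCI was more abundant per length (15.6 FPKM against 9.42 FPKM) and stood at a log2 fold change of -0.073 (adjusted p = 0.18).

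Among the 5 genes of the BRCA1 and BRCA2 complexes, PALB2 rose and BRIP1 fell. PALB2 (chromosome 16, 23603160 to 23641310, minus strand), which links BRCA1 to BRCA2, had 20.8, 20.7 and 18.9 CPM in the controls and 25.2, 25.2 and 23.2 CPM in the knockdown samples. The groups were clearly apart, with a rise of 21.6% (log2 fold change 0.28, standard error 0.074, adjusted p = 0.022). BRIP1 (chromosome 17, 61679139 to 61863528, minus strand), the BRCA1-bound helicase also known as FANCJ, had 55.4, 50.6 and 49.2 CPM in the controls and 47.3, 44.4 and 42.7 CPM in the knockdown samples. It fell by 13.4% (log2 fold change -0.21, standard error 0.058, adjusted p = 0.028), and the gap between the groups was smaller than the spread within either. BRCA1 itself did not pass (log2 fold change 0.13, adjusted p = 0.12). Its knockdown samples were at 92.2, 81.5 and 78.5 CPM against 76.8, 75.7 and 77.2 CPM in the control samples, so the difference lay mostly in knockdown replicate 1. BARD1 had a log2 fold change of -0.056 and BRCA2 one of -0.027. For BRCA2 the knockdown samples ranged from 28.7 to 41.9 CPM, on both sides of the control samples.

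**Figure D3:**
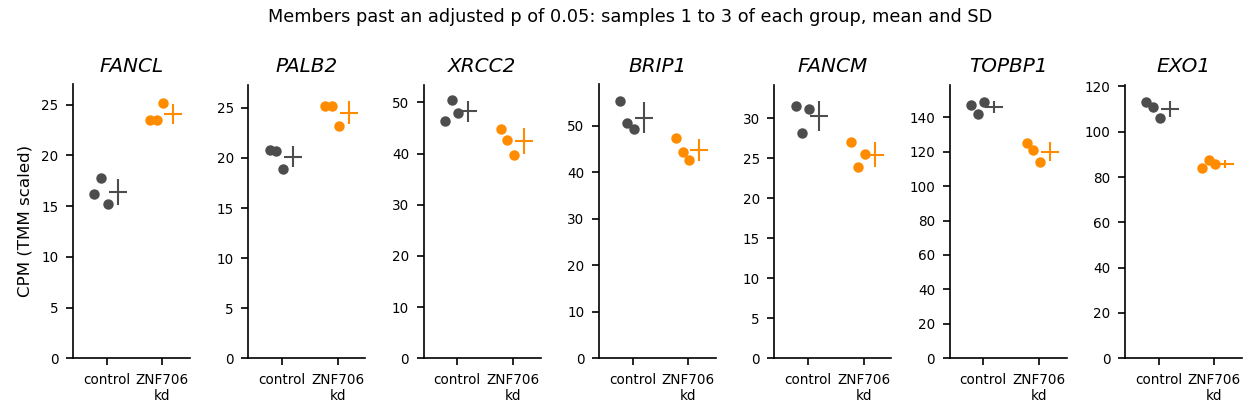
CPM in each control (grey) and ZNF706 knockdown (orange) sample for the 7 repair genes past an adjusted p of 0.05, each with its own axis from 0 and with the mean and SD of 3 samples beside the points. In all 7 the groups do not overlap, with the widest gaps for FANCL and EXO1.

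RAD51C, RAD51D, XRCC2, XRCC3, RAD54L and RAD54B encode proteins that help the broken strand to pair with its intact copy. Of these 6 genes only XRCC2 passed the test in the main analysis, and it was called in 4 of the 12 other settings that used all samples. RAD51C was called higher in 9 of those 12 settings, but in 0 of the 6 fits with a sample left out. XRCC2 (chromosome 7, 152644776 to 152676141, minus strand) had 46.4, 50.4 and 47.9 CPM in the controls and 44.8, 42.7 and 39.8 CPM in the knockdown samples. The groups did not overlap, and XRCC2 fell by 12.1% (log2 fold change -0.19, standard error 0.055, adjusted p = 0.038). The values of 5 of the 6 genes were below 0, with a median of -0.16. RAD54B stood at a log2 fold change of -0.29 (adjusted p = 0.063), XRCC3 at -0.26 (adjusted p = 0.084), RAD54L at -0.13 and RAD51D at -0.048. RAD51C, a partner of XRCC3, was the exception at 0.28 (adjusted p = 0.055), with 16.0, 16.3 and 18.3 CPM in the knockdown samples above 14.2, 12.9 and 14.7 CPM in the control samples. Overlapping genes limit some of these values. FSBP lies on the same strand as RAD54B, shares 59.1% of its exon bases and fell with a log2 fold change of -0.60 (adjusted p = 0.014). KLC1 shares 76.7% of the exon bases of XRCC3 on the opposite strand and had 836% of its mean count. The log2 fold change of KLC1 was 0.093, and reads in the shared bases cannot be assigned.

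EXO1 was the only gene of the 5 in end resection to change, and it fell further than any other repair gene that passed the test. EXO1 (chromosome 1, 241847967 to 241895148, plus strand) is the exonuclease that lengthens the single-stranded tail at a broken end, and it also acts in mismatch repair. It had 113, 111 and 106 CPM in the controls and 84.0, 87.5 and 85.8 CPM in the knockdown samples. The groups were far apart for their spread, and EXO1 fell by 21.9% (log2 fold change -0.36, standard error 0.038, adjusted p = 0.00025). The MRE11 complex, which starts resection, gave no call. NBN stood at a log2 fold change of -0.15 (adjusted p = 0.053), RAD50 at 0.066 and MRE11 at 0.11, so its subunits did not lie on the same side of 0. RBBP8, the cofactor of that complex also known as CtIP, had -0.072.

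Among the 5 genes of checkpoint signalling, TOPBP1 alone passed the test. TOPBP1 (chromosome 3, 133598175 to 133662380, minus strand) activates ATR and is also needed to start replication. It had 147, 142 and 149 CPM in the controls and 125, 121 and 114 CPM after knockdown. All knockdown samples were well below all control samples, and TOPBP1 fell by 17.8% (log2 fold change -0.28, standard error 0.042, adjusted p = 0.0014). The 4 kinases themselves did not pass the test. ATR had a log2 fold change of -0.024, ATM of -0.010, CHEK2 of -0.051 and CHEK1 of -0.11 (adjusted p = 0.099). None of the 4 genes that process joint molecules was called. BLM, the helicase that dissolves double Holliday junctions, had -0.0033, the nuclease scaffold SLX4 -0.15 (adjusted p = 0.12), MUS81 0.059 and its partner EME1 0.25 (adjusted p = 0.078). EME1 and MUS81 lie beside far more abundant genes on the opposite strand that share exon bases with them, LRRC59 with 2310% of the mean count of EME1 and CFL1 with 2890% of that of MUS81. LRRC59 had a log2 fold change of -0.20 and CFL1 one of 0.16.

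Other overlaps with at least 10% of the repair gene's mean count were those of FANCA with ZNF276, FANCI with POLG, CHEK2 with HSCB, RAD54L with LRRC41 and BRCA1 with AC060780. The median biological coefficient of variation of the repair genes was 5.83%, against 11.4% for all genes tested and 6.31% for the 9618 genes of like CPM. Their median standard error of the log2 fold change was 0.061, against 0.11 and 0.063. The control and knockdown values did not overlap for 20 of the 35 genes (57.1%, against 39.4% of all genes tested), 9 of them higher and 11 lower after knockdown (19.7% of all genes in each direction). Among the genes of like CPM the share was 51.0%. A further 9 genes had an adjusted p between 0.05 and 0.1, so the count of calls was sensitive to the threshold.

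The samples of a group did not scatter evenly around the group. Knockdown replicate 1 was the highest of its group for 22 of the 35 genes and knockdown replicate 3 the lowest for 20, and control replicate 3 was the lowest of its group for 18. The summed level of the 35 genes was 1990, 1960 and 1940 CPM in the controls and 1950, 1860 and 1820 CPM after knockdown, so the groups overlapped in this sum. Without knockdown replicate 2 only FANCL, EXO1 and TOPBP1 were called, without control replicate 3 these and BRIP1, and without knockdown replicate 1 a total of 10 genes, of which 8 were lower. FANCL, EXO1 and TOPBP1 were called whichever sample was left out. PALB2 was called in 3 of the 6 such fits, and FANCM, BRIP1 and XRCC2 in 2 each.

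**Figure D4:**
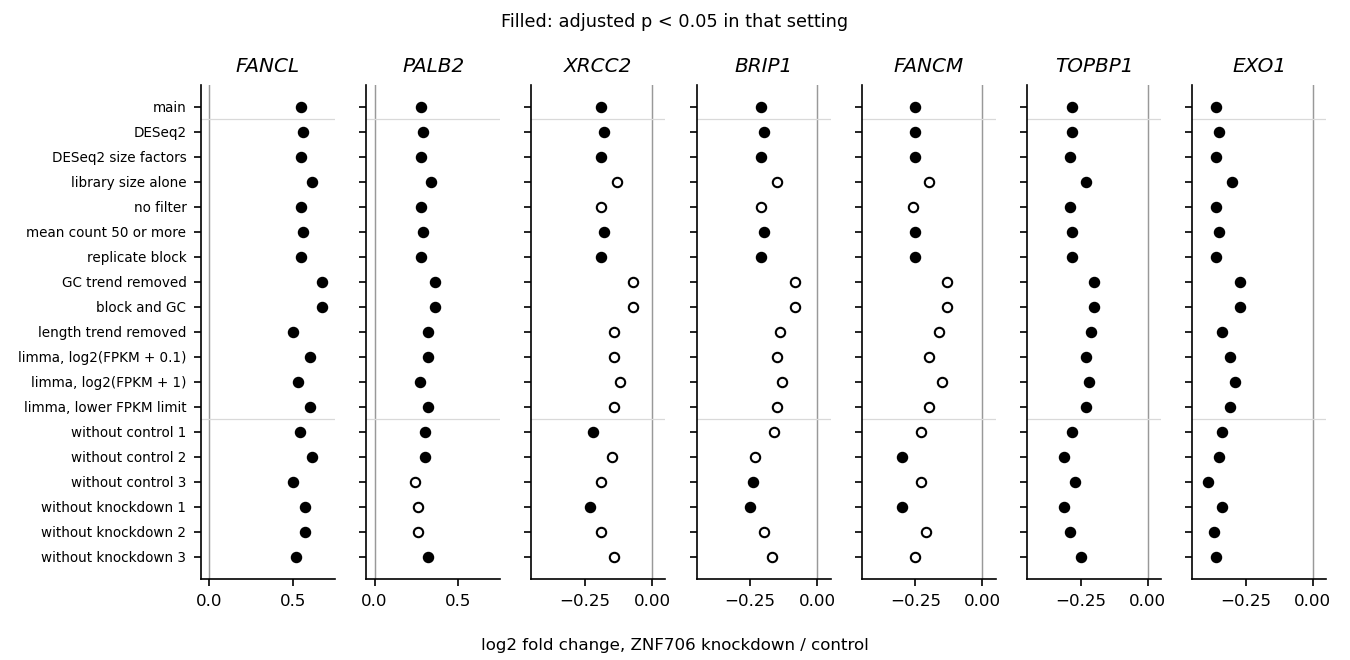
Log2 fold change of the 7 called repair genes in the main fit, in 12 other settings and with each of the 6 samples left out, each gene on its own axis, filled where the adjusted p is below 0.05. FANCL, TOPBP1 and EXO1 are filled throughout, whereas XRCC2, BRIP1 and FANCM move toward 0 and lose the call with the GC or length trend removed.

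Other genes of the same pathways were examined next. Of 61 further Fanconi and recombination genes, 18 were called (29.5%, against 22.8% of all genes and 33.6% of those in the CPM range of the 35 repair genes), 6 higher and 12 lower (10 and 8 with library size alone, 11 and 9 with limma above a mean FPKM of 1), and the median log2 fold change was -0.038. UBE2T, the enzyme that hands ubiquitin to FANCL, stood at a log2 fold change of -0.087 (adjusted p = 0.45). PSMC3IP, a cofactor of strand exchange, fell most. It had 30.6, 33.3 and 29.8 CPM in the controls and 21.4, 20.7 and 22.9 CPM in the knockdown samples (log2 fold change -0.53, adjusted p = 0.00086). RAD18, a ubiquitin ligase that acts on stalled forks (-0.38), TIPIN, of the fork protection complex (-0.34), RAD51AP1, which takes part in strand pairing (-0.32), and TOP3A, the topoisomerase that works with BLM (-0.28), fell too. So did ERCC4, the XPF nuclease that cuts at crosslinks, and USP1, which removes ubiquitin from FANCD2 and FANCI (both -0.24). EME2, a second partner of MUS81 (0.38), SWI5 (0.29) and the crosslink nuclease FAN1 (0.27) rose. With each of the 6 samples left out, EME2, FAN1 and ERCC4 were called in 2 fits each and SWI5 in 1. The other related genes named here as falling were called in all 6.

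Lists of genes for neighbouring processes were set beside these. Of 45 DNA replication genes 25 were called (55.6%), 5 higher and 20 lower (6 and 10 with library size alone), and the median log2 fold change was -0.10. GMNN, an inhibitor of origin licensing (-0.54), and POLA2, of the primase complex (-0.50), fell most, and ORC3, of the origin recognition complex, rose (0.37). Of 38 mitosis genes 19 were called, all lower, with a median of -0.17, led by CENPE (-0.64), CENPA (-0.42) and NUSAP1 (-0.41). Of 23 genes of the G1/S transition and the E2F family 10 were called (43.5%), again all lower, with a median of -0.16 and with E2F7 (-0.52), TFDP2 (-0.35) and E2F8 (-0.30) at their head. End joining, the other route for broken ends, had 3 calls among 15 genes tested (20.0%), POLM (0.21) and TP53BP1 (0.13) higher and RIF1 (-0.18) lower. No end joining gene was called with no filter, and with each of the 6 samples left out POLM was called in 0 fits and TP53BP1 and RIF1 in 1 each. No mitosis or G1/S gene was called higher in any scaling tried. These are counts set side by side, and the difference between lists was not tested.

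**Figure D5:**
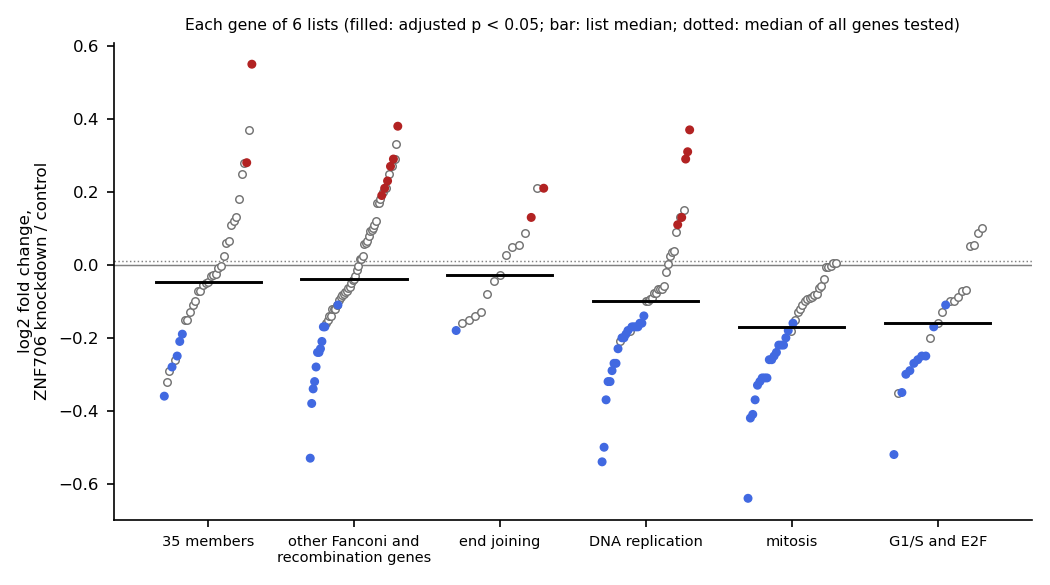
Log2 fold change of each gene tested in 6 lists, sorted within a list, filled where the adjusted p is below 0.05 (red higher, blue lower), with a black bar at the list's median and a dotted line at the median of all genes tested. The bars for the 35 repair genes and the 61 related genes lie at -0.048 and -0.038, nearer to 0 than those for DNA replication (-0.10), mitosis (-0.17) and G1/S (-0.16).

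The lists of mitosis and replication genes mark proliferating cells. The summed level of the mitosis list was 9740, 9640 and 10100 CPM in the controls and 8720, 8630 and 8750 CPM after knockdown, and that of the replication list 5590, 5570 and 5510 against 5120, 5150 and 5100 CPM. The groups did not overlap in either sum, unlike in that of the repair genes, and abundant genes weigh most in such a sum. Nor did they overlap in the sum of the 61 related Fanconi and recombination genes. That sum was 2930, 2960 and 2990 CPM in the controls and 2830, 2800 and 2800 CPM after knockdown. By CPM the most abundant gene of the mitosis list was MKI67, which marks cycling cells, with a mean of 1040 CPM in the controls and 836 CPM after knockdown (log2 fold change -0.31, adjusted p = 0.00067). That of the replication list was RRM2, a subunit of ribonucleotide reductase, with 653 and 534 CPM (-0.29, adjusted p = 0.00027). Other mitosis genes did not pass the test, among them CDC20 (-0.0019), FOXM1 (-0.0052), BUB1 (0.0054) and KIF20A (0.0055), and the replication genes POLD1 (0.31) and POLD2 (0.29) rose besides ORC3. The part of these genes in the values of the repair genes was not tested.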

How the data were processed

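RNA of 3 control and 3 ZNF706 knockdown samples of LM3 cells was sequenced on an Illumina NovaSeq system. The submitters' processing notes name cutadapt 1.9, FastQC and GRCh38, and the reads were mapped with HISAT2. The counting program, its use of strand and the annotation release are not given in the sources used here. The authors deposited raw counts per gene, without normalization, beside FPKM values, which they scaled to gene length and library size.

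From the counts, filterByExpr, TMM scaling, glmQLFit and glmQLFTest of edgeR 4.0.16 (R 4.3.3) gave log2 fold changes with group as the only term, and p-values were adjusted by Benjamini-Hochberg over 18390 genes, with a threshold of 0.05. Standard errors were taken as the size of the log2 fold change over the root of its F value. An exact permutation test of 3 samples against 3 has a smallest two-sided p of 0.1. The fit was also run on simulated data, of which no result is given here. Samples of a group were checked not to be repeats of a library: chi-square values per gene ran from 12.8 to 22.2 within groups and from 45.9 to 53.9 between them.

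The members and lists were chosen with earlier results of these data known, so patterns among them are descriptions. All 35 members are named. For the other lists the called genes with the largest absolute change are named (10 of the related genes, 3 of each comparison list); UBE2T, MKI67, RRM2, POLD1, POLD2, CDC20, FOXM1, BUB1, KIF20A and the marker genes were named besides, after their values were seen. Genes overlapping a member are named where they hold at least 10% of its mean count. Alternatives were DESeq2 1.42.0, its size factors, library size alone, the absence of a filter, a minimum mean count of 50, a term for the replicate number, loess trends (span 0.3) on GC content or length of GENCODE release 29 transcripts, limma 3.58.1 on log2(FPKM + 0.1) or log2(FPKM + 1) with mean FPKM limits of 1 or 0.1, and each sample left out. Columns of the authors' own comparison and annotation were not used.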

Additional observations from a re-analysis of the deposited data

How the results depend on the processing

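ZNF706 was lower and called in every setting run. No repair gene that was called turned its direction. The count of called repair genes, 7 in the main analysis, was 12 with DESeq2 (4 higher, 8 lower), 11 with a mean count of at least 50, 4 with no filter and 4 (2 higher, 2 lower) with the criteria of an unadjusted p and a log2 fold change of 0.3. It was 12 with the GC trend removed and 11 with the replicate block and the GC trend removed together. With DESeq2, 4418 of the 31319 genes with any count were called, against 4192 of the 18390 past the filter in the main analysis. The DESeq2 total holds genes of low count that the main filter removed, so its share does not compare with that of the repair genes. These fits differ in the genes tested, the spread assumed or the trend removed, and the cause was not tested further. Of the 28 uncalled genes, 13 were called in at least 1 other setting and 15 in none. FANCD2 and RAD51C were called most often among these, each higher in 9 of the 12 settings that used all samples. The median log2 fold change of the repair genes ranged from -0.067 to 0.012 over all settings, and was below that of all genes in each. Leaving out 1 sample gave 3 (without knockdown replicate 2) to 10 called repair genes, 2648 to 3424 genes in all (4192 with every sample) and 10 to 14 of the related Fanconi and recombination genes (18 with every sample), which came to 5 by the unadjusted criteria. Same-numbered samples did not deviate together (correlations of 0.0344, -0.0363 and -0.0156), so the numbers were not taken to pair them. With the replicate block 10 repair genes were called, 3 higher and 7 lower, and 4361 genes in all. The least abundant repair gene, FANCF, had a mean count of 377 and a standard error of 0.12, against a median of 0.061 for the 35 genes, so calls of changes of its size are limited more than those of EXO1.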
